A study of Mus musculus with 6 samples.

Results

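The transcripts of 10 genes that write, copy and remove DNA methylation or that build the polycomb repressive complex PRC2 were followed in stimulated regulatory T cells (Tregs): Dnmt1, Uhrf1, Dnmt3a, Dnmt3b, Tet1, Tet2, Tet3, Ezh2, Ezh1 and Suz12. They were chosen by name, as the catalytic enzymes of these pathways with the DNMT1 partner Uhrf1 and the PRC2 core subunit Suz12, and all 10 were found among the 49585 genes measured. Cells without B220 that carried CD4 and YFP (and CD25, according to the design text) were sorted from spleens of C57BL/6 mice aged 7 weeks. They were stimulated for 24 hours on plates coated with antibodies against CD3 and CD28, and their poly(A) RNA was sequenced. Wild-type mice (WT) gave 3 libraries, and the other 3 are labelled Bach2-cKO, by that name a conditional knockout of the transcriptional repressor gene Bach2. The labels do not say which cells lack BACH2 or what drives the YFP and the deletion, nor whether each library stands for its own mouse. The p-values thus reflect variation among these samples alone, and that variation may be technical.

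In mammals DNA methylation sits mainly on the cytosines of CpG dinucleotides. DNMT3A and DNMT3B place it on unmethylated DNA, whereas DNMT1, guided by UHRF1 to the half-methylated DNA behind the replication fork, copies it onto the new strand. The TET enzymes oxidise methylated cytosine and so open a route to its removal, and in Tregs this keeps the regulatory elements of Foxp3 demethylated and the gene stably expressed. PRC2 trimethylates a lysine in the tail of histone H3 to silence genes, with EZH2 or its paralog EZH1 as the catalytic subunit and SUZ12 as a scaffold. EZH2 prevails in dividing cells and EZH1 in resting ones, and EZH2 is needed by activated Tregs to keep their identity.

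Read totals of the libraries were between 27697735 and 43884431. Fold changes below are of the libraries labelled Bach2-cKO over WT, on the scale log2(FPKM + 1), where FPKM is the read count of a gene scaled to its length and to the library total. A gene was called at an adjusted p under 0.05, from limma with Benjamini-Hochberg adjustment over the 13766 genes that reached 1 FPKM in 3 or more libraries. Of these genes, 2111 were called (15.3%), 967 of them higher (7.02%) and 1144 lower (8.31%). Bach2 itself had 99.4 to 112.0 FPKM in WT and 88.9 to 120.8 FPKM in the libraries labelled Bach2-cKO (adjusted p = 0.812, limma). This value sums all exons and does not check the labels. Treg genes were abundant, with Foxp3 at 108 to 127 FPKM in WT and 104 to 153 FPKM in Bach2-cKO, and the summed FPKM of 10 T cell and Treg markers overlapped between groups (2834 to 3235 and 2817 to 3209). Within that list Il2ra rose, Cd3d (-0.37, limma adjusted p = 0.0292) and Cd3g (-0.28, 0.0346) fell, 7 of 10 genes were at an unadjusted p under 0.05 and the median log2 fold change was -0.21. The genes called lower numbered 4 without Bach2-cKO replicate 3, 1 without Bach2-cKO replicate 1 or WT replicate 1, and 0 without Bach2-cKO replicate 2, WT replicate 2 or WT replicate 3. B cell markers were also abundant in cells sorted as B220-negative: their sum over 12 genes was 1204 to 1677 FPKM in WT and 1733 to 2217 FPKM in Bach2-cKO, and 5 of the 12 rose, or 2 to 9 with 1 library left out (2 without WT replicate 1 or WT replicate 3, 3 without Bach2-cKO replicate 2, 9 without WT replicate 2). All 5 tested markers of CD8 T and NK cells rose too (summed FPKM of the list 99.5 to 126 and 168 to 321). Of these, 3 were called when Bach2-cKO replicate 1 was left out and 2 when WT replicate 1, 2 or 3 or Bach2-cKO replicate 2 was. The list of plasma cells had 3 of 5 tested markers that rose, Jchain, Mzb1 and Prdm1 (summed FPKM of the list 155 to 170 and 263 to 334). Of 4 tested germinal centre B cell markers, Fas fell (-0.77, limma adjusted p = 0.00216). The summed FPKM of that list was 82.5 to 92.0 in WT and 62.2 to 70.4 in Bach2-cKO. The markers did not fall as a set: their median log2 fold change was 0.096 and 2 of the 4 were above 0. Only 1 was at an unadjusted p under 0.05. Myeloid and erythroid markers had 0 calls by limma among 5 tested genes each, with 1 and 0 at an unadjusted p under 0.05 and medians of 0.78. Their sums were high in Bach2-cKO replicates 2 and 3: 73.7 and 82.3 FPKM for myeloid markers, against 33.98 in Bach2-cKO replicate 1 and 26.53 to 34.03 in WT, and 1034 and 792 FPKM for erythroid markers, against 204 and 182 to 517. Without Bach2-cKO replicate 1, 3 myeloid markers and 1 erythroid marker were called higher, and without WT replicate 1, 1 myeloid marker. None of the markers of these cell types was at 0 in every library, but several were under 1 FPKM in all of them. These were Gcsam and Rgs13 (germinal centre B cells), Tnfrsf17 (plasma cells), Klrb1c (CD8 T and NK cells), and Csf1r, Fcgr1 and Itgam (myeloid cells). The part of these cell types in the results below was not tested. In bulk RNA, fewer cells of a type and less RNA per cell cannot be told apart. Bach2-cKO replicate 3 stood apart from the other libraries of its group in genes of cell division (below), so several results, though not all, are given with and without it.

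Of the 10 members, 9 passed the filter on low values and 1 was called: Ezh2 rose, none fell, and 8 had no call. That is 1 of 9 against 7.02% of all tested genes called higher, a number too small to set the members apart. At an unadjusted p under 0.05 there were 5 members (Ezh2, Tet2, Dnmt3a, Tet3 and Suz12). The share of all tested genes at that level was not counted, so no excess among the members or the lists is shown. In these 5 members the 3 values of one group lay entirely above the 3 of the other, as they did for 35.6% of all tested genes. Tet1, which fell below the filter, also had groups that did not overlap. Of these 6 members, Ezh2, Tet2 and Suz12 were higher and Dnmt3a, Tet3 and Tet1 lower in Bach2-cKO. The median log2 fold change was 0.13 over the 9 tested members and -0.017 over all tested genes.

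**Figure D1:**
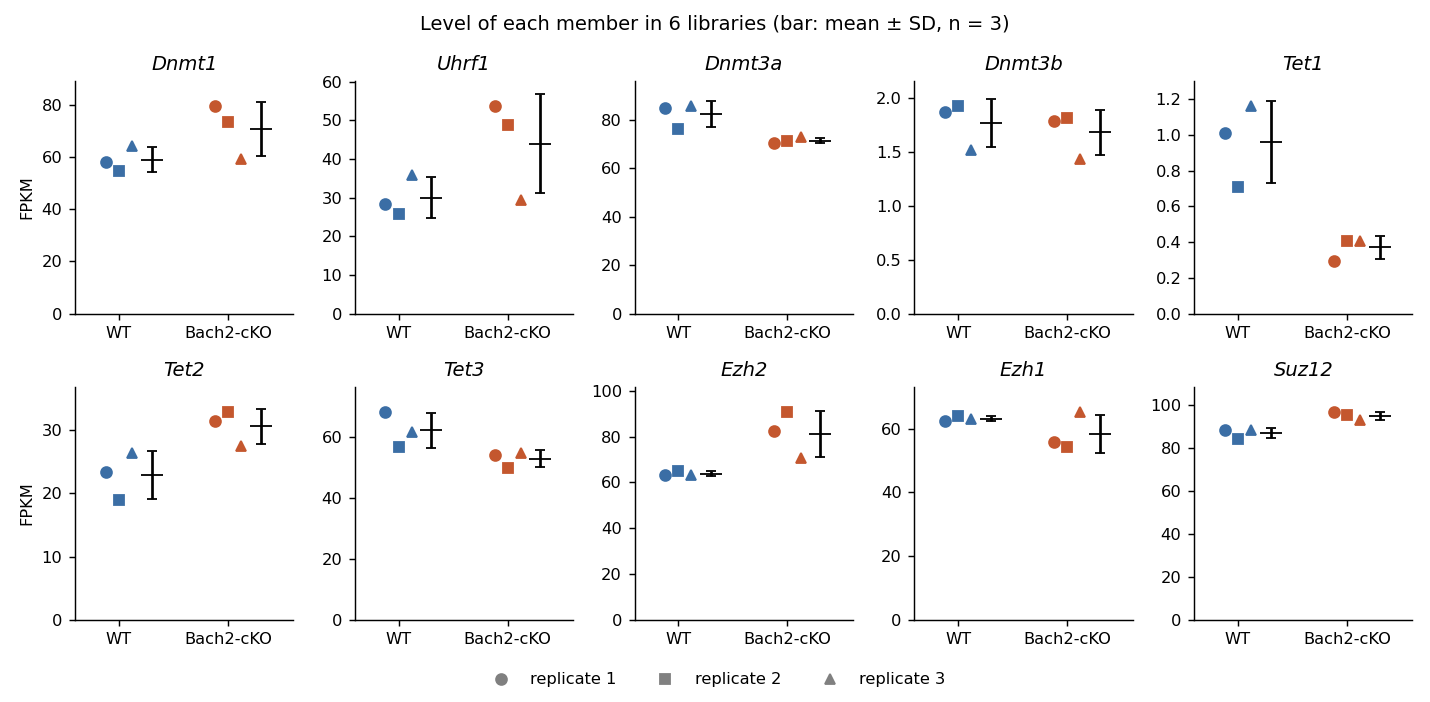
FPKM of the 10 members in each of the 6 libraries, with 1 panel and its own linear axis from 0 per gene; symbols mark the replicate number and the bar gives the mean ± SD (n = 3). The groups do not overlap for Ezh2, Tet2 and Suz12 (higher in Bach2-cKO) or for Dnmt3a, Tet3 and Tet1 (lower), and for Dnmt1 and Uhrf1 Bach2-cKO replicate 3 lies among the WT values.

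The members were expressed over a wide range of levels. By FPKM, the WT order was Suz12 (86.9 ± 2.37, SD, n = 3 here and below), Dnmt3a (82.2 ± 5.26), Ezh2 (63.8 ± 1.13), Ezh1 (63.0 ± 0.769), Tet3 (62.2 ± 5.77), Dnmt1 (59.0 ± 4.75), Uhrf1 (30.0 ± 5.22), Tet2 (22.9 ± 3.79), Dnmt3b (1.77 ± 0.224) and Tet1 (0.960 ± 0.230). The WT values of Suz12 and Dnmt3a overlapped, as did those of Ezh2 and Ezh1, of Ezh1 and Tet3, of Tet3 and Dnmt1, and of Uhrf1 and Tet2, so these neighbours are not ordered. DNMT3B and TET1, the enzymes best known from embryonic cells, were therefore the least abundant of their families here, and DNMT3A was the main de novo methyltransferase transcript.

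The order between genes depends on the length used. The authors' FPKM divide each gene by a length that, for 24193 of the 28530 genes with reads and for 9 of the 10 members, equals the mean length of its annotated transcripts, and short transcript models make that length small. For Dnmt3a it was 2324 bases where the merged exons cover 16642, and for Ezh2 1397 where they cover 6678. Per kilobase of merged exons, the WT levels were 32.2 for Suz12, 28.1 for Dnmt1, 18.4 for Tet3, 15.9 for Uhrf1, 15.2 for Ezh1, 13.4 for Ezh2, 11.5 for Dnmt3a, 4.79 for Tet2, 1.22 for Dnmt3b and 0.334 for Tet1. Dnmt3a moved from the second to the seventh place and Dnmt1 from the sixth to the second, and on this scale the WT values of Ezh1 lay above those of Ezh2. Neither length is that of the transcripts present in these cells, which was not measured. On both scales Suz12 had the highest mean and Tet2, Dnmt3b and Tet1 the 3 lowest. The ratio of a gene's FPKM between libraries does not depend on the length, but the filter at 1 FPKM and the scale log2(FPKM + 1) do, most of all for genes near 1 FPKM such as Tet1.

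**Figure D2:**
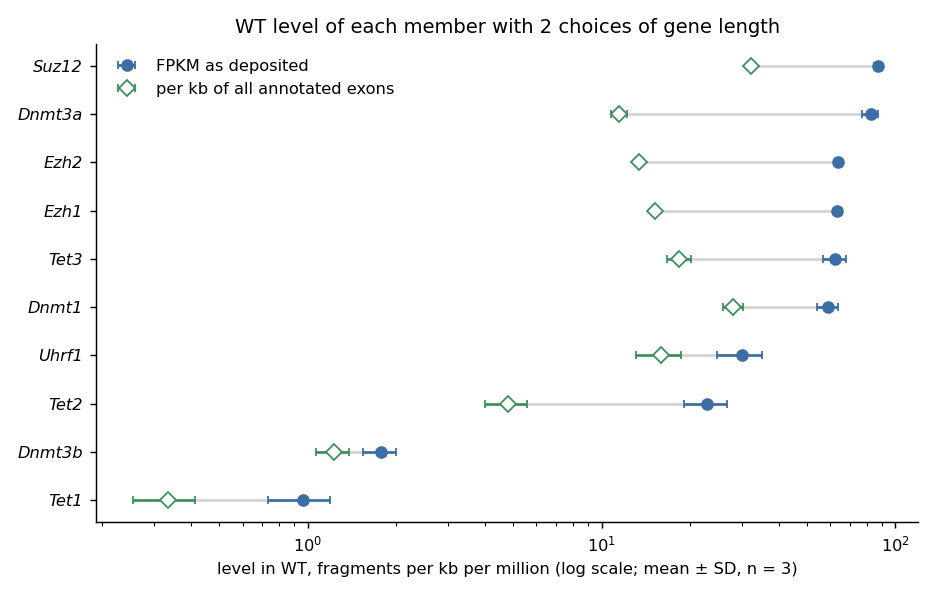
WT level of each member as the mean of 3 libraries with SD, per kilobase of the length the authors used (FPKM) and per kilobase of merged annotated exons, on a log axis. Suz12 leads and Dnmt3b and Tet1 trail on both scales, while Dnmt3a falls from 82.2 to 11.5 and Dnmt1 from 59.0 to 28.1.

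Promoter sequences were read for all 10 members from RefSeq (GRCm38.p6), as 15 windows from 250 bases before to 50 bases after a start site. They are CpG-rich: the windows hold 2 to 57 CpG, with a median of 30.0. Over all 32851 windows the median was 7.0 and the 90th percentile 31.0. Dnmt1 and Uhrf1 took the same arrangement over the libraries as genes of cell division (below). Ezh2 and Suz12 did not share it in Bach2-cKO replicate 3, where both lay above every WT library. The windows were searched on both strands for 4 E2F-type sequences, TTTCCCGC, TTTGGCGC, TTTCGCGC and TTTGCCGC, a choice made after the values were seen. A part of E2F factors in these levels was not tested. E2F factors bind such sequences at genes of DNA replication. Exact matches were found in 4 of the 15 windows, 1 each at Dnmt1, Uhrf1, Ezh2 and Suz12. Of all 32851 windows, 744 held a match (2.26%). The core TGAGTCA, shared by BACH and AP-1 binding sites, was in 0 of the 15 member windows and in 5.2% of all windows. All 4 E2F-type sequences hold a CpG and TGAGTCA holds none. The shares over all windows were not matched for CpG content, so they are no like background for the members. A match is a description of the letters and not a binding site, and a window without one says nothing of the factor. The 4 windows with a match are shown 5′ to 3′ on the strand of the gene, because they are the members' promoters that share these letters, with matches in capitals; the Dnmt1 window has 2, the first of them on the opposite strand.
Dnmt1, chr9:20952574-20952873, minus strand: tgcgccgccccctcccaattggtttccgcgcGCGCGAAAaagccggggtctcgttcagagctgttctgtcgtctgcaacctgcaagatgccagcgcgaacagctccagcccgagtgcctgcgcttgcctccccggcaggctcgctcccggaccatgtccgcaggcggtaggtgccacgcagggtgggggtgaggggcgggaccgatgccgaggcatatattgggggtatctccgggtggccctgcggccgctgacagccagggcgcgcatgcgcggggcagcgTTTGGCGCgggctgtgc
Uhrf1, chr17:56304063-56304362, plus strand: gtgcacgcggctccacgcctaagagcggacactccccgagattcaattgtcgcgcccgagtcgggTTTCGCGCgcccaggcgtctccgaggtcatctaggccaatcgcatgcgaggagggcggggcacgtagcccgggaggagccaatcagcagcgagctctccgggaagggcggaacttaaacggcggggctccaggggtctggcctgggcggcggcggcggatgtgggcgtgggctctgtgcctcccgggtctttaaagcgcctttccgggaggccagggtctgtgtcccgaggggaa
Ezh2, chr6:47594981-47595280, minus strand: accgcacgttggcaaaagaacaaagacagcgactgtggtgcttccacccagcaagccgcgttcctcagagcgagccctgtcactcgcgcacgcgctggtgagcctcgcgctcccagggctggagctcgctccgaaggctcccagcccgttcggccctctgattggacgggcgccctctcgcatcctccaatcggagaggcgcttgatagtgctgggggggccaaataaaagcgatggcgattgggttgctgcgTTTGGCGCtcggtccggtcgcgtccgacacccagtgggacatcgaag
Suz12, chr11:79992856-79993155, plus strand: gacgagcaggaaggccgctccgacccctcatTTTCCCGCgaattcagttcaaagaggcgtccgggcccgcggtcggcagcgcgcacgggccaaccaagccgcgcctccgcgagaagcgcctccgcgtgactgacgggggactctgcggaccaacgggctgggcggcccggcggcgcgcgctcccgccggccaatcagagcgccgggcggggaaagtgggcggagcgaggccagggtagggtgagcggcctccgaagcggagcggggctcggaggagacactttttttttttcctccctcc
The matches begin 219 bases before and 33 bases after the start site of Dnmt1, 185 before that of Uhrf1, 3 after that of Ezh2 and 219 before that of Suz12.

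Among the enzymes that copy methylation, Dnmt1 and Uhrf1 were higher in 2 of the 3 Bach2-cKO libraries and had no call. Dnmt1 (chromosome 9, 20907209 to 20959888, GRCm38 as for all members) had 58.0, 54.8 and 64.1 FPKM in WT replicates 1, 2 and 3 and 79.5, 73.3 and 59.3 FPKM in Bach2-cKO replicates 1, 2 and 3. Bach2-cKO replicates 1 and 2 lay above every WT library and replicate 3 among them. The log2 fold change was 0.25 (SE 0.11, 95% interval -0.014 to 0.51, limma adjusted p = 0.183). Uhrf1 (chromosome 17, 56303321 to 56323486) had 28.5, 25.7 and 35.8 FPKM in WT and 53.7, 48.7 and 29.4 FPKM in Bach2-cKO. Its libraries fell in the same arrangement as those of Dnmt1 with a wider spread, and the log2 fold change was 0.50 (SE 0.22, 95% interval -0.012 to 1.02, limma adjusted p = 0.171). Without Bach2-cKO replicate 3 both were called, Dnmt1 at 0.37 (adjusted p = 0.0274) and Uhrf1 at 0.76 (adjusted p = 0.0126, limma). Without Bach2-cKO replicate 1 both were smaller, Dnmt1 at 0.16 (adjusted p = 0.433) and Uhrf1 at 0.34 (0.402), and the other 4 leave-outs called neither.

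The 34 listed genes of S phase and mitosis took the same arrangement over the libraries. Their median log2 level relative to each gene's mean was -0.30, -0.26 and 0.034 in WT and 0.45, 0.32 and -0.18 in Bach2-cKO, and for Uhrf1 the values were -0.31, -0.45 and 0.0091, and 0.58, 0.44 and -0.27. In each group the same library stood apart, WT replicate 3 as the highest of WT and Bach2-cKO replicate 3 as the lowest of Bach2-cKO. Of the 34 genes, 33 had a log2 fold change above 0, with a median of 0.39, but 1 was called, E2f3, a transcription factor of the E2F family (0.51, SE 0.10, limma adjusted p = 0.0159). That call was lost without Bach2-cKO replicate 1 (adjusted p = 0.06), Bach2-cKO replicate 2 (0.0683) or WT replicate 2 (0.0514), whereas without Bach2-cKO replicate 3 the list had 23 calls. The part of cell division in the levels of Dnmt1 and Uhrf1 was not tested.

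**Figure D3:**
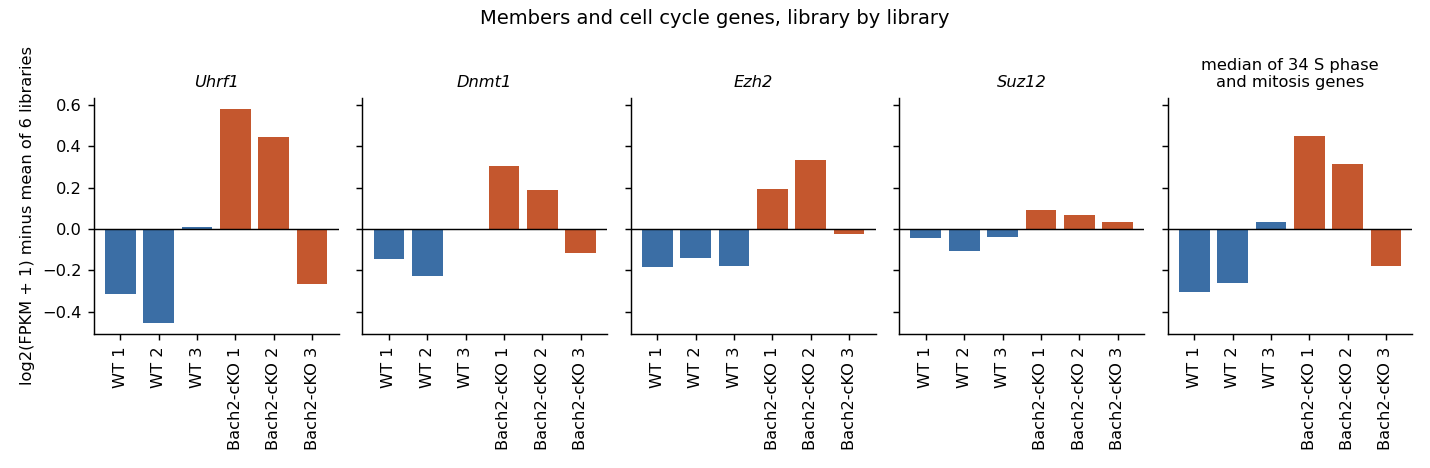
Log2 level of Uhrf1, Dnmt1, Ezh2 and Suz12 in each library relative to the gene's mean over the 6 libraries (bars from 0), beside the median of 34 S phase and mitosis genes on the same linear scale. All 5 panels are highest in Bach2-cKO replicates 1 and 2, and the list median is -0.18 in Bach2-cKO replicate 3 and 0.034 in WT replicate 3.

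The closest patterns over the 6 libraries were sought among tested genes with a mean of at least 5 FPKM, by the root mean square distance of centred log2 values. Uhrf1, whose own pattern has a size of 0.389 on this measure, was nearest to Espl1 (0.0316), Bub1 (0.0371) and Clspn (0.0597). Dnmt1 (size 0.188) was nearest to Orc6 (0.0295), Ddt (0.0349) and Pdia3 (0.0356). Bub1 is also among the 34 listed genes. With 6 libraries and 13766 genes some close patterns are found for any gene, so these are descriptions.

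The de novo methyltransferase Dnmt3a (chromosome 12, 3806007 to 3914443) had 85.0, 76.2 and 85.6 FPKM in WT and 70.4, 71.0 and 72.7 FPKM in Bach2-cKO. All 3 WT libraries lay above all 3 Bach2-cKO libraries, which were close to each other. The mean was 13.2% below that of WT, and the log2 fold change of -0.20 (SE 0.064, 95% interval -0.35 to -0.052) had an unadjusted p of 0.0146 and an adjusted p of 0.0744 (limma), so it was not called. It passed the threshold without WT replicate 2, the lowest WT library (adjusted p = 0.0455), and under none of the other 12 alternatives, where 1 left-out library gave up to 0.214. Dnmt3b (chromosome 2, 153649450 to 153687730) had 1.87, 1.92 and 1.51 FPKM in WT and 1.79, 1.81 and 1.44 FPKM in Bach2-cKO. Its groups overlapped (log2 fold change -0.047, SE 0.15, 95% interval -0.39 to 0.29, limma adjusted p = 0.861).

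None of the 3 TET genes was called in the main test: Tet2 was higher in every Bach2-cKO library than in any WT library, Tet3 and Tet1 were lower, and differences between the 3 genes were not tested. Tet2 (chromosome 3, 133463679 to 133545139) had 23.4, 18.9 and 26.4 FPKM in WT and 31.4, 32.8 and 27.5 FPKM in Bach2-cKO. The groups did not overlap, though WT replicate 3 and Bach2-cKO replicate 3 were close. The log2 fold change was 0.41 (SE 0.13, 95% interval 0.12 to 0.70) with a limma adjusted p of 0.0679, over the threshold. It passed when reads recovered from the FPKM were tested with limma-voom (adjusted p = 0.0334) and without WT replicate 3 (adjusted p = 0.0422). It was not called under 10 of 13 alternatives, with an adjusted p of 0.172 with no filter and up to 0.196 with 1 library left out (without Bach2-cKO replicate 2). Without Bach2-cKO replicate 3 the log2 fold change of Tet2 was 0.48, just short of a call (limma adjusted p = 0.0509). Tet3 (chromosome 6, 83362373 to 83459084) had 68.2, 56.7 and 61.8 FPKM in WT and 54.2, 49.7 and 54.9 FPKM in Bach2-cKO. The groups did not overlap, and the highest Bach2-cKO library lay close to the lowest WT library. Its log2 fold change was -0.23 (SE 0.081, 95% interval -0.42 to -0.037, limma adjusted p = 0.104), and it was not called under any alternative run.

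Set beside each other in a library, the FPKM of Tet2 over that of Tet3 was 0.343, 0.333 and 0.427 in WT and 0.579, 0.660 and 0.501 in Bach2-cKO. This ratio was formed after the values were seen and is given with no test. Every Bach2-cKO library had a higher ratio than every WT library, and Tet3 kept the higher FPKM of the pair in all 6.

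Tet1 (chromosome 10, 62804570 to 62899118 in the deposited table) was the rarest member, with 1.01, 0.710 and 1.16 FPKM in WT and 0.295, 0.407 and 0.408 FPKM in Bach2-cKO. These values rest on 238, 118 and 173 reads in WT and 44, 70 and 61 in Bach2-cKO, recovered from the FPKM. Tet1 is the member whose length does not equal the mean of its annotated transcripts (5376 bases used, mean 3405). Its reads come from the shortest length that gives whole reads, so the true counts could be a multiple of these. The WT mean was 2.59 times that of Bach2-cKO (0.960 ± 0.230 and 0.370 ± 0.0649 FPKM, SD, n = 3), and no Bach2-cKO library reached the lowest WT library. With 2 libraries at or above 1 FPKM Tet1 was not tested in the main analysis. Among all genes with reads the limma adjusted p on log2(FPKM + 1) was 0.078, at a log2 fold change of -0.51. On the recovered reads, limma-voom with no filter gave -1.35 and an adjusted p of 0.0131, which rests on the length found for Tet1. That test, added after the data were seen, called 4.25% of 28530 genes lower. Whether Tet1 is called lower therefore depends on the test and the filter.

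Ezh2, the PRC2 catalytic subunit of dividing cells, was the member that rose. Ezh2 (chromosome 6, 47530139 to 47595341) had 63.0, 65.1 and 63.4 FPKM in WT and 82.3, 90.7 and 70.6 FPKM in Bach2-cKO. The WT libraries were close to each other, and all 3 Bach2-cKO libraries lay above them, replicate 3 by the least. The means were 63.8 ± 1.13 and 81.2 ± 10.1 FPKM (SD, n = 3), and the log2 fold change was 0.33 (SE 0.091, 95% interval 0.12 to 0.55, limma adjusted p = 0.0464). The call is near its limit: without Bach2-cKO replicate 1, Bach2-cKO replicate 2, WT replicate 1, WT replicate 2 or WT replicate 3 the adjusted p was 0.126, 0.131, 0.136, 0.101 and 0.103, and with no filter on low values it was 0.12. Without Bach2-cKO replicate 3 it was 0.00746, at a log2 fold change of 0.43. Unlike Uhrf1 and Dnmt1, Ezh2 was higher in Bach2-cKO replicate 3 than in any WT library. Whether Ezh2 differs from them in this was not tested. The nearest patterns to that of Ezh2 (size 0.198) were those of Nus1 (0.0376), Ggh (0.0397) and Dbi (0.0470).

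Its paralog Ezh1 (chromosome 11, 101191115 to 101226463) had 62.3, 63.9 and 62.9 FPKM in WT and 55.7, 54.3 and 65.2 FPKM in Bach2-cKO. Bach2-cKO replicates 1 and 2 lay below WT and replicate 3 above it, so the groups overlapped (log2 fold change -0.11, SE 0.078, 95% interval -0.29 to 0.068, limma adjusted p = 0.372). Without Bach2-cKO replicate 3 the log2 fold change was -0.19 (adjusted p = 0.0601), against -0.064 (0.711) when Bach2-cKO replicate 2 was left out, with no call in either. The ratio of Ezh2 to Ezh1 FPKM was 1.01, 1.02 and 1.01 in WT and 1.48, 1.67 and 1.08 in Bach2-cKO. All 3 Bach2-cKO libraries were above WT, replicates 1 and 2 by far more than replicate 3. The log2 ratio differed by 0.45, with a two-sided exact permutation p of 0.1, the smallest that 3 against 3 libraries allow. Leaving out 1 library at a time, the difference was 0.32 to 0.63, the highest without Bach2-cKO replicate 3. The ratio near 1 in WT depends on the lengths the authors used and its change between groups does not.

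Suz12 (chromosome 11, 79993106 to 80034123) had 88.2, 84.2 and 88.4 FPKM in WT and 96.7, 95.2 and 93.1 FPKM in Bach2-cKO. The groups did not overlap, but the difference was small, 9.26% of the WT mean. The log2 fold change was 0.13 (SE 0.053, 95% interval 0.0036 to 0.25) with an unadjusted p of 0.045 and a limma adjusted p of 0.152, and it was not called under any alternative run.

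**Figure D4:**
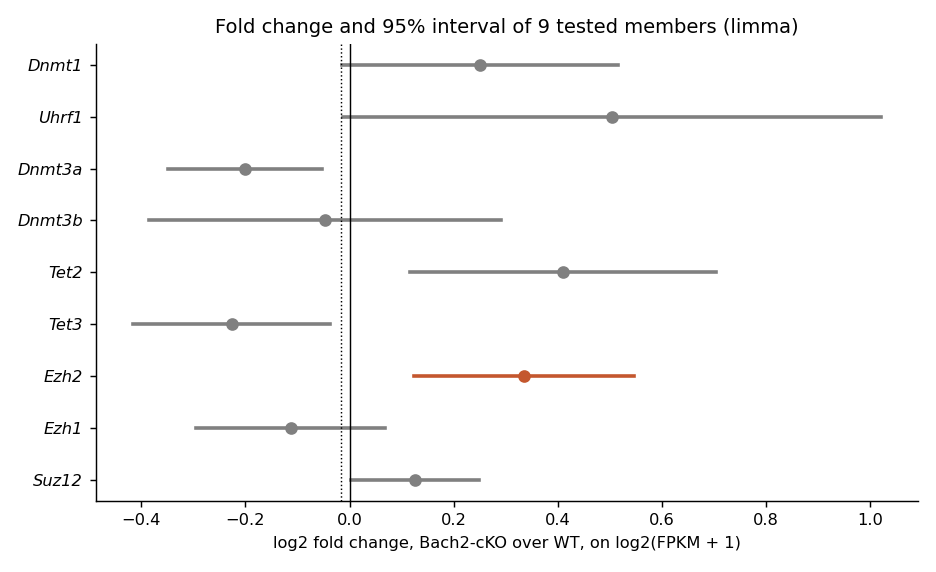
Log2 fold change of Bach2-cKO over WT with its 95% interval for the 9 tested members, on a linear axis; the solid vertical line marks 0 and the dotted one the median of all tested genes (-0.017). Ezh2 is coloured. The interval lies above 0 for Ezh2, Tet2 and Suz12 and below 0 for Dnmt3a and Tet3, and of these Ezh2 passed the threshold after adjustment over all tested genes.

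The other genes of these pathways were taken from 5 lists of partner genes, with 86 tested in all, of which 8 rose and 9 fell, near the 7.02% and 8.31% of all tested genes. Among 22 tested partners of DNA methylation and demethylation (median log2 fold change -0.014, against -0.017 over all tested genes) 1 rose and 1 fell. Gadd45g, a stress-response gene whose family has been linked to active demethylation, had 31.2, 33.0 and 48.2 FPKM in WT and 111, 136 and 99.6 FPKM in Bach2-cKO (log2 fold change 1.61, SE 0.18, limma adjusted p = 0.00154). Every Bach2-cKO library exceeded every WT library, and the call held under all 13 alternatives. Without Bach2-cKO replicate 3 the list had 3 genes called higher, Gadd45g, Usp7 and Hells. Smug1, a uracil-DNA glycosylase of base excision repair, fell (-0.45, SE 0.11, limma adjusted p = 0.0367), a call lost without any of the libraries except WT replicate 3 (adjusted p of 0.0502 to 0.114). The UHRF1 paralog Uhrf2 had 94.9, 82.9 and 85.3 FPKM in WT and 79.8, 77.7 and 78.3 FPKM in Bach2-cKO with no call (limma adjusted p = 0.161).

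Of the 8 tested PRC2 subunits beside the members (median 0.021) 1 rose and 1 fell. Aebp2, an accessory subunit of one form of PRC2, had 195, 194 and 197 FPKM in WT and 255, 229 and 247 FPKM in Bach2-cKO. The groups were far apart relative to their spread (log2 fold change 0.31, SE 0.060, limma adjusted p = 0.0127), and the call was narrowly lost without WT replicate 1 (adjusted p = 0.052) or Bach2-cKO replicate 1 (0.051). Phf1, a Polycomb-like accessory subunit of the other form, fell (-0.43, SE 0.11, limma adjusted p = 0.037), a call lost without WT replicate 1 or 2 (adjusted p of 0.129 and 0.113) or Bach2-cKO replicate 1 or 2 (0.102 and 0.122). The core subunit Eed, named outside the rule, had 97.6, 101 and 93.0 FPKM in WT and 103, 103 and 100.4 FPKM in Bach2-cKO, with overlapping groups (limma adjusted p = 0.41). Jarid2, which helps PRC2 to bind chromatin, had a log2 fold change of -0.22 and no call (limma adjusted p = 0.106), but was called lower without Bach2-cKO replicate 3 (-0.29, adjusted p = 0.0236). Without that library the list had 2 genes called higher, Aebp2 and Phf19, and 2 called lower, Phf1 and Jarid2.

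PRC1, the second polycomb complex, reads the PRC2 mark through its CBX subunits and ubiquitinates histone H2A. Of 23 tested subunits (median -0.075) 5 fell and 1 rose, where 8.31% of all tested genes fell. Cbx6 (-0.45, SE 0.059, limma adjusted p = 0.00326), Cbx2 (-0.64, SE 0.093, 0.00463) and Cbx7 (-0.63, SE 0.12, 0.0115) are CBX subunits. Cbx7 had 206, 196 and 167 FPKM in WT and 114, 110 and 142 FPKM in Bach2-cKO, and Cbx2 11.2, 11.1 and 11.3 FPKM in WT and 6.71, 6.32 and 7.53 FPKM in Bach2-cKO, without overlap in either. Pcgf5 and Kdm2b, subunits of variant forms of PRC1, fell by less (-0.35, limma adjusted p = 0.0192, and -0.31, 0.0192) and were named after their values were seen. Pcgf2, a core subunit, rose (0.66, SE 0.13, limma adjusted p = 0.0145). The calls of Cbx6 and Cbx2 held under all 13 alternatives. Without WT replicate 1 the list had 2 genes called lower: Cbx7, Pcgf2, Pcgf5 and Kdm2b were then at an adjusted p of 0.0511, 0.0563, 0.0614 and 0.0794. Pcgf5 was also lost without Bach2-cKO replicate 1 (0.0574), WT replicate 2 (0.0506) or WT replicate 3 (0.0595), and Kdm2b without Bach2-cKO replicate 2 (0.0772).

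Of 13 tested enzymes that oppose polycomb, such as the demethylases Kdm6a and Kdm6b and the activating methyltransferases of the Kmt2 family, limma called 0, with 1 at an unadjusted p under 0.05 and a median of -0.036.

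Enzymes that supply the methyl donor S-adenosylmethionine or the TET cofactor alpha-ketoglutarate were tested for 20 genes (median 0.0093), of which 5 rose and 2 fell, where 7.02% and 8.31% of all tested genes did. The counts were 3 higher without Bach2-cKO replicate 1, Bach2-cKO replicate 2 or WT replicate 1, and the genes called lower numbered 3 without Bach2-cKO replicate 3 and 1 without any other library. The amino acid transporter Slc7a5, which carries methionine among others, rose (0.78, SE 0.097, limma adjusted p = 0.0025). The mitochondrial one-carbon enzymes Shmt2 (0.62, SE 0.089, 0.00427) and Mthfd2 (0.43, SE 0.069, 0.00704) also rose. Ahcyl2, related to the enzyme that hydrolyses S-adenosylhomocysteine, fell from 78.4, 77.0 and 82.5 FPKM in WT to 50.2, 46.9 and 47.6 FPKM in Bach2-cKO (-0.71, SE 0.059, limma adjusted p = 0.00058). These 4 calls held under all 13 alternatives. Ahcy itself and the transaminase Got1 rose (0.42 and 0.31) and the cytosolic Shmt1 fell (-0.36), named after their values were seen. Their calls were lost without any of several libraries: Ahcy without Bach2-cKO replicate 1 or 2 or WT replicate 1 or 2 (adjusted p of 0.0609 to 0.0753), Got1 without Bach2-cKO replicate 1 or 2 or WT replicate 1 (0.0709 to 0.075), and Shmt1 without any 1 of the 6 (0.0582 to 0.084).

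**Figure D5:**
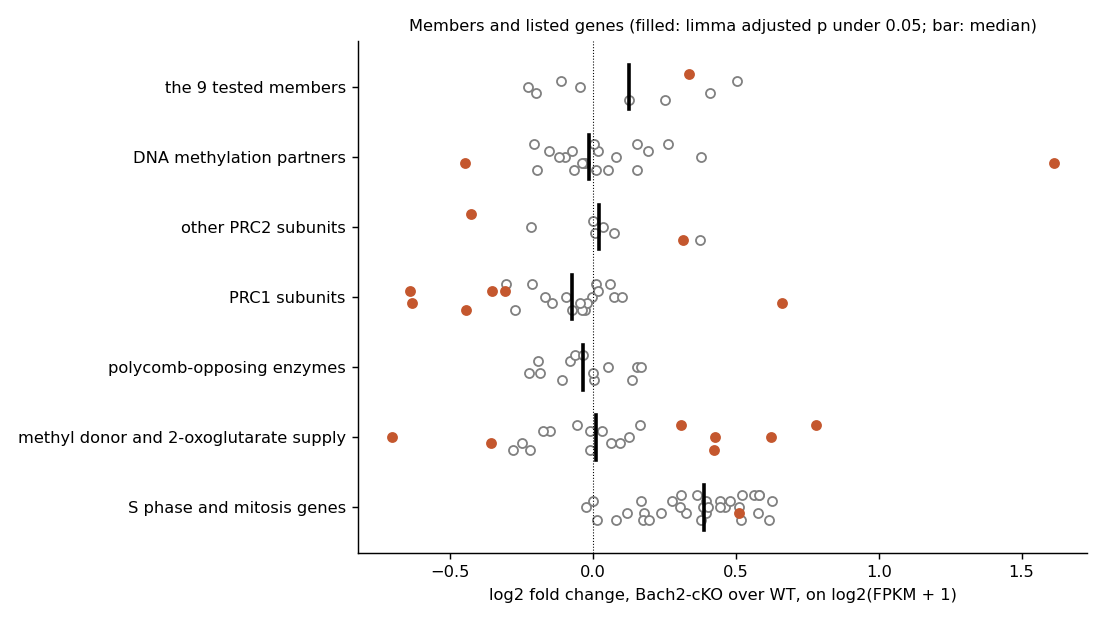
Log2 fold change of every tested gene among the members, in the 5 partner lists and among S phase and mitosis genes (points, filled where called; bars mark each list's median). The members' median is 0.13, those of the partner lists lie between -0.075 and 0.021, that of the S phase list is 0.39, and the called PRC1 genes are mostly below 0.

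Genes known to be controlled by these enzymes were set beside them, from lists chosen with earlier results of these data known, so their direction is not independent evidence. Of 6 genes that carry Treg-specific demethylated regions (median -0.016), Il2ra, the high-affinity interleukin-2 receptor chain, rose from 238, 230 and 301 FPKM in WT to 502, 486 and 458 FPKM in Bach2-cKO (0.92, SE 0.11, limma adjusted p = 0.00186). Ikzf4, which encodes the Treg factor EOS, fell (-0.45, SE 0.098, limma adjusted p = 0.0209), a call lost without WT replicate 1 (adjusted p = 0.0698) or Bach2-cKO replicate 1 or 2 (0.0607 and 0.0719). Foxp3 had no call (0.068, 95% interval -0.26 to 0.40, limma adjusted p = 0.786), and its log2 fold change was -0.0997 without Bach2-cKO replicate 3. Of 10 genes that PRC2 is known to restrain in T cells (median 0.80), 7 rose and none fell, where 7.02% and 8.31% of all tested genes did. Those that rose include the cytokine genes Il4 (1.85, SE 0.18, limma adjusted p = 0.000915), Il13 (3.16, SE 0.43, 0.00355) and Ifng (1.72, SE 0.26, 0.00499) and the cell cycle inhibitor Cdkn1a (0.57, SE 0.11, 0.0149). Without Bach2-cKO replicate 1 or Bach2-cKO replicate 2 the list had 4 calls, and with no filter on low values 3. Markers of CD8 T and NK cells rose in the same libraries, at the summed levels given above. Neither DNA methylation nor histone marks were measured in these samples, and no link from the members to these genes was tested.

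Of the 10 members, 7 share bases with another annotated gene above 0.1 FPKM, at most 2.65 FPKM. The strand setting of the counting is not stated in the labels or notes, so small contributions of such reads cannot be separated.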

How the data were processed

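Poly(A) RNA of 6 libraries (3 WT, 3 labelled Bach2-cKO) was measured. The authors deposited FPKM per gene; per the submitters' processing notes, HISAT2 2.0.5, featureCounts 1.5.0-p3 and the build mm9 were used. For annotation and strand the setting is not given in the sources used. The positions equal GENCODE M21 on GRCm38 for 45128 of 49326 identifiers, and are given as GRCm38.

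FPKM steps gave whole reads for all 28530 genes above 0 (tolerance 0.001 reads), which served for depth, levels per merged exon length and limma-voom. For 24193 of these genes the length was the mean of the annotated transcripts. For the rest it was the shortest length that gave whole reads, so finding whole reads there is no check of the counts. Genes reaching 1 FPKM in 3 or more libraries entered the test, on log2(FPKM + 1) with limma 3.58.1 (trend) in R 4.3.3, two-sided, without covariates, adjusted by Benjamini-Hochberg at 0.05. Python 3.11.15 and Matplotlib 3.10.9 drew the figures. The test was checked on simulated data with the same dispersion for all genes (0.00487). Of 50 genes changed at each size, it recovered 11 at 1.25-fold, 39 at 1.5-fold, 47 at 2-fold and 50 at 4-fold. At this setting most changes of 1.25-fold were thus missed. The members and lists were chosen with earlier results of these data known. The rule for naming genes covered all members, in each list up to 4 genes of smallest p (2 for markers), and 3 nearest patterns per member. All members are named, but only a part of the other genes under the rule is, with nearest patterns for Uhrf1, Dnmt1 and Ezh2. Some names fall outside the rule, and not all of these are marked as chosen later. Alternatives were median-ratio scaling, limma-voom, other filters, a pseudocount of 0.1, a replicate block and leaving out each library; limma-voom with no filter was added after the data were seen. No library matched another within sampling noise.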

Additional observations from a re-analysis of the deposited data

How the results depend on the processing

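With 3 libraries per group precision is limited, and members without a call may differ within the intervals given. Members called higher numbered 1 in the main test, 2 with limma-voom (Ezh2 and Tet2) with or without the filter, 0 with no filter, 0 with the replicate block, and 0 to 3 when 1 library was left out. The 3 came without Bach2-cKO replicate 3 (Ezh2, Dnmt1 and Uhrf1), and without WT replicate 3 the 1 call was Tet2, not Ezh2. Members called lower numbered 0 in the main test, 1 with limma-voom and no filter (Tet1), and 0 to 1 with 1 library left out. The log2 fold change of Dnmt3b was -0.12 to 0.020 with 1 library left out, above 0 without Bach2-cKO replicate 3, with no call in any setting; it has no value under the filter of 5 FPKM, and Tet1 has values only with no filter. Over all genes, 967 higher and 1144 lower became 501 and 681 with no filter, 625 and 657 with the replicate block, and 485 to 1200 and 511 to 1378 with 1 library left out. Partner genes, 8 higher and 9 lower, became 5 lower with no filter, 5 and 5 with the replicate block, and 4 to 11 and 3 to 12 with 1 library left out. The cause of these shifts was not tested. The replicate numbers share only a number: deviations of same-numbered libraries correlated at -0.0526, 0.00578 and -0.215 for numbers 1, 2 and 3, and with the block the adjusted p of Ezh2 was 0.0698. Foxp3 ranged from -0.0997 to 0.18 with 1 library left out, below 0 without Bach2-cKO replicate 3. A further 56 genes were followed beside the members, not all of them named in the text. Their 727 values under the alternatives included 632 with the same sign and side of the threshold, 74 that lost it and 20 that gained it. The remaining 1, that of Foxp3, had the other sign. The 632 include values of genes with no call in any setting, such as Kmt2a (0 of 13 alternatives).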
